A study of Mus musculus with 2 samples.

Results

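The 10 genes described here encode elastin and proteins of the microfibrils on which elastin is laid down, and they were taken by symbol from a table of 37309 genes, in which each symbol was found once. They are the elastin gene Eln, the fibrillin genes Fbn1 and Fbn2, the fibulin genes Fbln1, Fbln2 and Fbln5, the microfibril-associated genes Mfap2, Mfap4 and Mfap5, and the emilin gene Emilin1. The RNA sequencing compared cultured intestinal subepithelial myofibroblasts (ISEMFs), mesenchymal cells that lie beneath the epithelium of the crypts. Supportive ISEMFs came from neonatal and non-supportive ISEMFs from adult mice, all wild type C57BL/6, with 1 library for each population, and both were grown out of the small intestine. Supportive cells let crypts grow without added R-spondin, while the other population did so weakly, and the comparison asks which transcripts differ between them. Age and population were changed together and cannot be told apart. The deposited table carries the code P16 with the supportive library and P3 with the non-supportive one. The sources used here do not say whether these are culture passages, and whatever differs with them cannot be told apart from the population either.

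In connective tissue, fibrillin molecules assemble outside the cell into beaded microfibrils. Tropoelastin is then placed on this scaffold with the help of fibulins and other small glycoproteins, and lysyl oxidases cross-link it into a fiber that stretches and recoils. Microfibrils also occur without elastin, and they hold latent TGF-beta binding proteins and BMPs in the matrix. In the gut wall, elastic fibers are best known from blood vessels and the muscle layers, while fibroblasts and myofibroblasts are known sources of fibrillin-1 and fibulins.

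Reads on genes numbered 50674472 in supportive and 49615497 in non-supportive ISEMFs, and the 10 genes took 0.559% and 0.263% of them. The mitochondrial genome took 14.6% and 7.85%. With no replicate of either population, no difference below has a replicate check, no p-value is given, and the intervals (95%, exact Clopper-Pearson from the reads) cover counting error only. Levels are the deposited RPKM, which scales reads by exon length and library size, and log2 ratios are of supportive over non-supportive ISEMFs after 0.1 was added to each RPKM, which understates the ratio of low genes. Myofibroblast genes were high in both libraries, with Acta2 (α-SMA) at an RPKM of 908 in supportive and 1410 in non-supportive ISEMFs and Vim at 325 and 407.

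Both libraries held abundant fibrillin-1 and fibulin-2 transcripts and almost none of elastin. Fbln2, Fbn1 and Fbln5 made up 97.2% of the summed RPKM of the 10 genes in supportive ISEMFs and 96.2% in non-supportive ISEMFs. The sum was 429 against 191, a ratio of 2.24, while the summed RPKM of all protein-coding genes had a ratio of 0.921. The largest difference in level was that of Fbln5, which accounted for 32.8% of the sum in supportive and 1.88% in non-supportive ISEMFs. Since a culture can hold several cell types, fewer cells of a type and less RNA per cell cannot be told apart in any of these values.

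Because these 3 genes carry nearly all of the group's transcripts, the 250 bases before their RefSeq start sites (build GRCm38.p6, each read along the gene's own strand) are shown. They lie at chr2:125506439-125506688 on the minus strand for Fbn1, at chr6:91212514-91212763 on the plus strand for Fbln2, and at chr12:101819120-101819369 on the minus strand for Fbln5, where the upstream one of 2 listed starts was used. Capitals mark the GC box, GGGCGG on either strand, the element that Sp1-type factors bind.
Fbn1: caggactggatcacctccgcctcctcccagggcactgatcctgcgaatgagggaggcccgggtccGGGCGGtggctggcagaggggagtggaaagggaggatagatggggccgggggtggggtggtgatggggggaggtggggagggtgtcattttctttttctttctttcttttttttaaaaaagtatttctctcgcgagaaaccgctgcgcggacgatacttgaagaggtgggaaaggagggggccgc
Fbln2: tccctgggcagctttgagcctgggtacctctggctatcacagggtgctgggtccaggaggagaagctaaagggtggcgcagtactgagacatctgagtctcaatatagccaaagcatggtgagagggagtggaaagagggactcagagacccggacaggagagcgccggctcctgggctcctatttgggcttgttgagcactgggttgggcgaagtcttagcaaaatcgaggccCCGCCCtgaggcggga
Fbln5: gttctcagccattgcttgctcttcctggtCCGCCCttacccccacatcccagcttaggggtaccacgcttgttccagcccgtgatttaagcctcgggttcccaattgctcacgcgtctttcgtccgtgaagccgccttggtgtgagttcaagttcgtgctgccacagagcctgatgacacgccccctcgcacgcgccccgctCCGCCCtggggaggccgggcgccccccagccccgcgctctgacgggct

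The GC box occurred 1 time in Fbn1, 1 time in Fbln2 and 2 times in Fbln5, and 33.0% of 27025 promoter windows of this length held it. Windows were read for 6 of the 10 genes, which also include Fbln1, Mfap2 and Emilin1, whose windows held 0 GC boxes. Among the 10 genes, those on chromosome 18, where Fbn2 lies, were left out of this search. No window matched Eln, Mfap4 or Mfap5. A TATA box (TATAAA, 13.0% of windows) and an AP-1 site (TGANTCA, 6.85%) occurred in 0 of the 6, as did the CArG box of smooth muscle genes (1.41%). The CCAAT box (CCAAT, 34.5%) was found in Fbln5 and Mfap2, and the SMAD element (CAGAC, 42.2%) in Fbln1, Mfap2 and Emilin1. Both strands were searched for each motif, and a CArG box can hold the letters of a TATA or CCAAT box, so these searches overlap. The GC content of the windows was 65.2% for Fbln5, 59.2% for Fbn1 and 58.8% for Fbln2, and it was 63.2% for Emilin1, 51.2% for Mfap2 and 46.4% for Fbln1, against a median of 52.0% over all windows. A match describes letters only, and no link between these motifs and the ratios of the genes was tested.

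**Figure D1:**
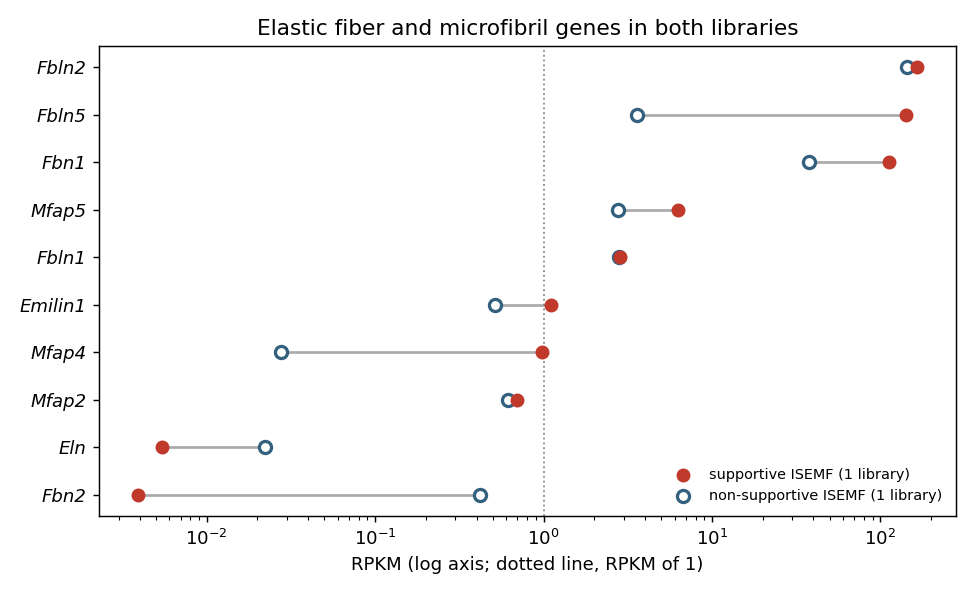
RPKM of each of the 10 genes on a log axis in the supportive library (filled red points) and the non-supportive library (open blue points), with genes ordered by the supportive level. Fbln2 stood at 164 and 143, Fbln5 at 141 and 3.59, and Eln and Fbn2 lay at the bottom in the supportive library, at 0.00542 and 0.00391.

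Fibrillins form the backbone of the microfibril. Fbn1, fibrillin-1, occupies bases 125126330 to 125333729 of chromosome 2 (minus strand) in mm9, the build of all gene positions below, with 65 exon blocks. It had 115283 reads in supportive and 37613 in non-supportive ISEMFs, at RPKM values of 113 and 37.9. Its level was therefore high in both, at rank 124 and rank 621 of 22379 protein-coding genes, and 2.98-fold higher in supportive ISEMFs (2.94 to 3.01), a log2 ratio of 1.57. The gene Gm9913 on the opposite strand shares 2442 bases with its annotated exons, 20.1% of them. Reads there can be assigned to neither gene unless strand was used, which is not given in the sources, so Fbn1 may be understated in both libraries. Gm9913 itself had 17 and 10 reads.

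Fbn2, fibrillin-2, is the paralog best known from embryonic and other developing tissue. It lies on chromosome 18 from 58168277 to 58369580, also with 65 exon blocks. Its reads numbered 3 in supportive and 314 in non-supportive ISEMFs, at RPKM values of 0.00391 and 0.422. The non-supportive adult cells thus had the higher level, by 108-fold (interval 36.5 to 525), although the level stayed under an RPKM of 1 in both. The log2 ratio with the pseudocount was -2.33, and -6.75 without it. Within the supportive library Fbn1 was at 28832 times the RPKM of Fbn2 (9865 to 139809), and within the non-supportive one at 89.9 times (80.4 to 101). Fibrillin transcripts in both populations were nearly all Fbn1.

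The fibulins are glycoproteins that bind elastin, fibrillin and basement membrane proteins. Fbln5, fibulin-5, tethers tropoelastin to microfibrils and binds integrins and Loxl1. The gene lies on chromosome 12 from 102984775 to 103057265 on the minus strand, in 11 exon blocks. Supportive ISEMFs had 58716 Fbln5 reads and non-supportive ISEMFs 1452, at RPKM values of 141 and 3.59, or ranks 96 and 5094. That was a 39.3-fold difference (37.3 to 41.4). Its log2 ratio of 5.26 ranked 24 from the top among the 9110 protein-coding genes whose RPKM reached 1 in a library.

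Fbln2, fibulin-2, is found in basement membranes and where elastin meets the microfibrils. The gene spans bases 91162449 to 91222534 of chromosome 6. With 104837 and 88835 reads and RPKM values of 164 and 143, it was the most abundant of the 10 genes in each library, at ranks 84 and 104. Its level was 1.15-fold higher in supportive ISEMFs (1.14 to 1.16), beyond counting error but well under 2-fold. Fbln2 stood at 39.8 times the RPKM of Fbln5 in non-supportive ISEMFs and at 1.16 times in supportive ISEMFs. With the exon lengths of the annotation, shorter than the deposited one for Fbln2 and equal for Fbln5, these became 60.7 and 1.77 times. Fbln2 was thus the higher of the pair in each library by either length, by far more in non-supportive cells.

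Fbln1, fibulin-1, is a component of the elastic fiber core and lies on chromosome 15 from 85036379 to 85116965. It had 915 and 880 reads, at RPKM values of 2.85 and 2.82. The levels differed by less than counting error, with a ratio of 1.01 and an interval from 0.920 to 1.11. The 3 fibulins thus gave 3 different ratios: 39.3 for Fbln5, 1.15 for Fbln2 and 1.01 for Fbln1.

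Mfap5 and Mfap2 encode the small microfibril-associated glycoproteins MAGP-2 and MAGP-1, which bind fibrillins. Mfap5 lies on chromosome 6 from 122455863 to 122479308, and had 2245 reads in supportive and 962 in non-supportive ISEMFs. The RPKM values were 6.26 and 2.76, which was 2.27-fold higher in supportive ISEMFs (2.10 to 2.45), a log2 ratio of 1.15 that was under 2-fold, at 0.95, with a pseudocount of 1. Mfap2 lies on chromosome 4 from 140566333 to 140571899. It had 108 and 92 reads and RPKM values of 0.698 and 0.612, so that the ratio of 1.14 had an interval from 0.856 to 1.52 and no difference was detectable. Mfap5 exceeded Mfap2 per length in both libraries, by 8.97-fold in supportive and 4.51-fold in non-supportive cells. With the exon lengths of the annotation these became 7.01-fold and 3.53-fold.

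Mfap4 encodes a protein that binds elastin, collagen and integrins, and lies on chromosome 11 from 61298933 to 61302402. It had 182 reads in supportive ISEMFs against 5, at RPKM values of 0.977 and 0.0276. The ratio was 35.4 with a wide interval of 14.9 to 110, since it rests on 5 reads. Its log2 ratio was 3.08 with the pseudocount and 5.14 without it, and its RPKM lay just under 1, so it is not counted among the genes past 2-fold. Of its annotated exon bases, 89 (4.63%) are shared with Mapk7 on the opposite strand, which had 747 and 692 reads. Fbln5 and Mfap4 had the largest ratios toward supportive ISEMFs of the 10 genes. The Mfap4 interval spans the Fbln5 ratio of 39.3, so which of them is larger cannot be told.

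Eln, the gene of tropoelastin itself, lies on chromosome 5 from 135179651 to 135223111 in 37 exon blocks. It had 1 read in supportive and 4 in non-supportive ISEMFs, at RPKM values of 0.00542 and 0.0223. For a gene of its length, 3 reads correspond to an RPKM of 0.0163 and 0.0167, so these levels are at the limit of detection. The ratio of 0.243 had an interval from 0.00493 to 2.46, and a difference was not detectable. Emilin1, which encodes a protein at the border of elastin and microfibrils, lies on the same chromosome from 31215775 to 31223651. It had 868 and 394 reads, at RPKM values of 1.10 and 0.516. Its ratio was 2.14 (1.90 to 2.42), but its log2 ratio with the pseudocount was 0.97, just under 2-fold. It passed 2-fold with a pseudocount of 0.001 and under every other library scaling tried.

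**Figure D2:**
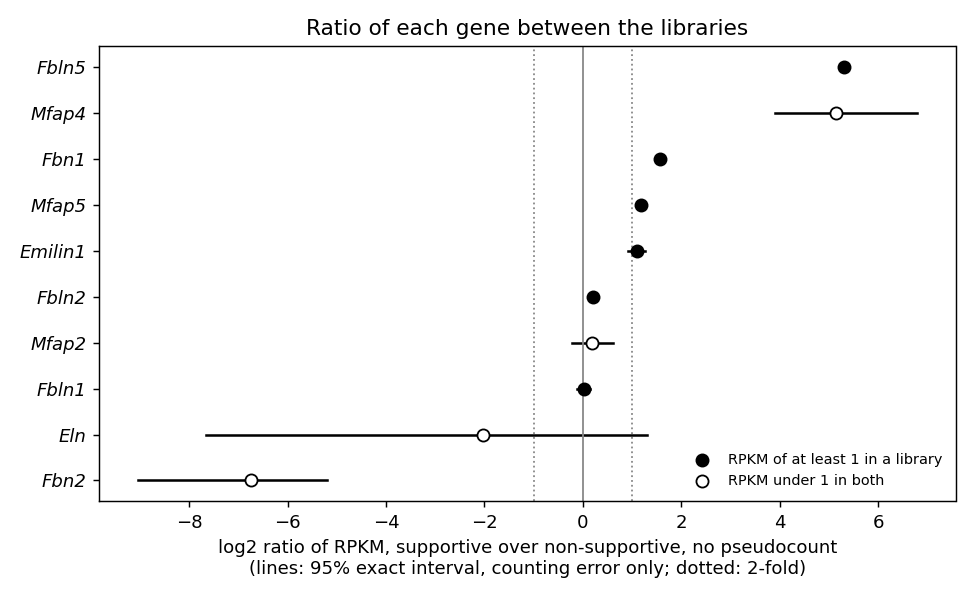
Log2 ratio of RPKM without a pseudocount for each gene (points; lines, 95% exact interval from counting error; dotted lines, 2-fold), filled where a library reached an RPKM of 1. Fbln5 and Mfap4 lay at 5.30 and 5.14, Fbn2 at -6.75, and the intervals of Fbln1, Mfap2 and Eln included 0.

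In one library or both, 6 of the 10 genes reached an RPKM of 1, and Emilin1 passed only through the supportive library, where it was higher. Fbn1, Fbln5 and Mfap5, 3 of these 6, were 2-fold or more higher in supportive ISEMFs, and 0 were 2-fold lower. Among the 9110 protein-coding genes at this level, 18.2% passed 2-fold in either direction, 9.25% higher and 8.98% lower. The median log2 ratio was 1.06 over the 6 genes and 0.58 over all 10, against -0.07 over the 9110. With the exon lengths in the annotation, the count of higher genes was 5 of 8, and 18.4% of protein-coding genes passed 2-fold in either direction. It was also 5 of 8 when the library size was the reads on genes outside the mitochondrial genome, where 19.7% passed. That library size is smaller than the one behind the deposited RPKM (71463423 and 69449374), so it raises every RPKM. Emilin1 and Mfap4 were added in both cases. Mfap4 reached the minimum there only through the supportive library, where it was higher, at 1.33 against 0.0375 with the annotated lengths. Its place in the count thus followed from the minimum. At 4-fold the count was 1 of 6, Fbln5 alone, and 6.62% of protein-coding genes passed in either direction.

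Fbln2 held the first place in both libraries, and the places of the other genes differed. In supportive ISEMFs it ran Fbln2, Fbln5, Fbn1, Mfap5, Fbln1, Emilin1, Mfap4, Mfap2, Eln and Fbn2. The neighbours Emilin1 and Mfap4 (ratio 1.13, interval 0.962 to 1.33) and Eln and Fbn2 (1.38, 0.0264 to 17.2) did not differ there beyond counting error. In non-supportive ISEMFs the order was Fbln2, Fbn1, Fbln5, Fbln1, Mfap5, Mfap2, Emilin1, Fbn2, Mfap4 and Eln. Here the pairs Fbln1 and Mfap5 (1.02, 0.930 to 1.12), Mfap2 and Emilin1 (1.19, 0.935 to 1.49) and Mfap4 and Eln (1.24, 0.267 to 6.24) could not be separated. The deposited exon length equals that of the annotation for 2 of the 10 genes, Eln and Fbln5, and is longer for the others. Per annotated length the RPKM in non-supportive ISEMFs was 3.86 for Mfap5, 3.59 for Fbln5 and 2.90 for Fbln1, which puts Mfap5 ahead of both. Emilin1 was at 1.15 against 1.09 for Mfap2 there, which exchanges their places. In supportive ISEMFs Emilin1 stood at 1.86 times Mfap4 per annotated length. Mfap4 was at 1.33 against 1.25 for Mfap2 there, which brings these 2 closer together than the deposited lengths do. Of the 10 genes, 9 carry an extracellular annotation in the deposited localization columns, and Fbln5 does not.

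**Figure D3:**
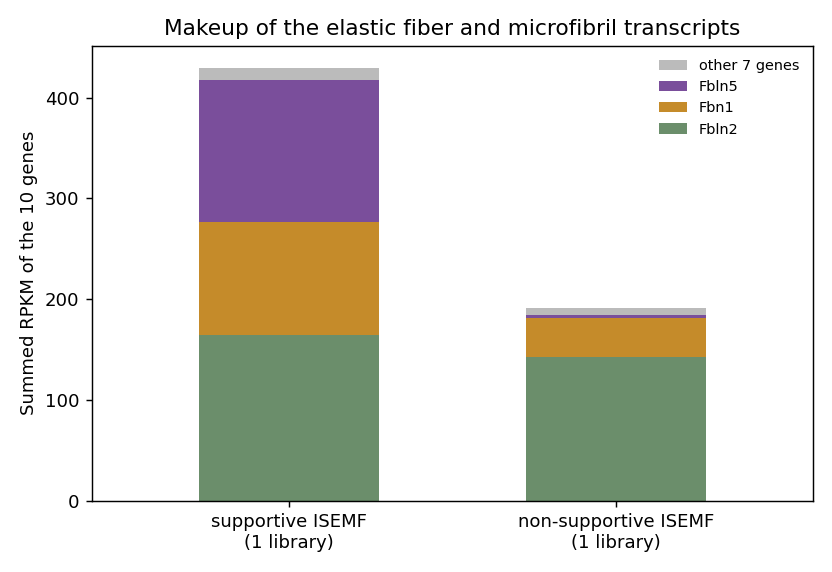
Summed RPKM of the 10 genes in each library, stacked by gene from a baseline of 0 (green, Fbln2; ochre, Fbn1; purple, Fbln5; grey, the other 7 genes). The sums were 429 and 191, and the purple part made 32.8% of the supportive and 1.88% of the non-supportive bar, against 38.1% and 74.6% for Fbln2.

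By family, the fibrillins summed to an RPKM of 113 in supportive and 38.3 in non-supportive ISEMFs, a ratio of 2.95. The fibulins summed to 307 and 149, a ratio of 2.06. The microfibril-associated genes Mfap2, Mfap4 and Mfap5 summed to 7.94 and 3.40, a ratio of 2.33. Each family sum was thus higher in the supportive library, and each rested mostly on 1 or 2 of its genes.

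The 4 further lists cover proteins that work with these genes or share a name with them. Other fibulins and microfibril-bound proteins had 11 of 21 entries at an RPKM of at least 1, of which 5 were 2-fold higher and 1 lower in supportive ISEMFs, with a median log2 ratio of 0.63. Fbln7, Ltbp4 and Adamtsl4 reached that level only in the supportive library, where they were higher. Fbln7, fibulin-7, had 1952 against 31 reads and RPKM values of 5.42 and 0.0885, a ratio of 61.2 (43.0 to 90.3). The latent TGF-beta binding proteins, which dock on microfibrils, went both ways. Ltbp4, a partner of fibulin-5 in elastin deposition, stood at 5.89 against 0.470, a ratio of 12.5 (11.2 to 14.1), and Ltbp3 at 7.89 against 3.24. Ltbp1 was lower in supportive ISEMFs, with 10834 against 41209 reads and 0.255 times the RPKM (0.250 to 0.261). Adamts10 and Adamtsl4, of the ADAMTS family members that bind fibrillin, were at 8.22 against 1.28 and 1.96 against 0.241. Efemp2, fibulin-4, which brings lysyl oxidase to tropoelastin, was at 13.2 and 11.7, a ratio of 1.13 (1.08 to 1.18). Mfap1a and Mfap1b are near-identical copies, so that counting only reads unique to a gene can leave both understated, and neither passed 2-fold. They were listed by their name, and a place of their protein in microfibrils was not tested. The list median of 0.63 is the value of Mfap1a.

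The cross-linking and secretion list had all 8 genes at an RPKM of at least 1, 2 of them 2-fold higher and 3 lower in supportive ISEMFs, with a median log2 ratio of -0.54. Lox, lysyl oxidase, had 58416 and 56622 reads at RPKM values of 153 and 152, with an interval of their ratio from 0.991 to 1.01. Loxl1, the lysyl oxidase most tied to elastin, was at 8.49 against 2.89, and Loxl3 at 13.0 against 5.60. Loxl2 was lower in supportive ISEMFs, at 51.1 against 132, as were Loxl4, at 1.51 against 3.42, and the copper transporter gene Atp7a, at 3.13 against 8.50. The cross-linking enzymes thus split by paralog. Lox, the most abundant of them in both libraries, was level within counting error at the deposited library sizes.

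The list of proteases drawn up for elastin breakdown had 8 of 10 genes at an RPKM of at least 1. In supportive ISEMFs 2 of them were 2-fold higher and 4 lower, with a median log2 ratio of -0.46. Whether each enzyme in the list degrades elastin was not tested. Mmp12, macrophage elastase, had 0 reads in supportive and 9099 in non-supportive ISEMFs. That was 3121-fold lower when 3 reads are taken as the floor of the supportive library, and at least 2538-fold by the exact interval. Mmp9 had 0 against 387 reads, 133-fold lower by the same floor and at least 107-fold by the exact interval. Ctss, cathepsin S, had 4 against 2255 reads, which was 580-fold lower (226 to 2131). These 3 proteases reached an RPKM of 1 only in the non-supportive library. Ctsb was at an RPKM of 34.5 against 81.2. In the other direction, Mmp2, gelatinase A, stood at 68.5 against 22.6 and its activator Mmp14 at 86.0 against 42.6. Macrophage markers moved along with Mmp12, Mmp9 and Ctss. All 6 (Ptprc, Csf1r, Cd68, Emr1, Tyrobp and Fcer1g) had more reads in the non-supportive library, their summed RPKM was 0.548 against 48.2, and Ptprc, Emr1 and Tyrobp had 0 reads in the supportive library. Their part in the result was not tested.

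Integrin and elastin receptor genes had all 10 entries at an RPKM of at least 1, with 2 higher and 2 lower in supportive ISEMFs and a median log2 ratio of -0.07. Itgb5, a partner of the αv integrin to which fibulin-5 and fibrillin-1 bind, was at 21.1 against 9.33, and Neu1, the sialidase of the elastin receptor complex, at 2.56 against 1.14. The fibronectin receptor genes Itga5, at 14.4 against 47.4, and Itgb1, at 272 against 658, were lower in supportive ISEMFs. Itgav, the αv subunit, was at 37.5 and 44.4. Over the 4 lists together, 11 of 37 entries were 2-fold higher and 10 lower, against the 9.25% and 8.98% of protein-coding genes.

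**Figure D4:**
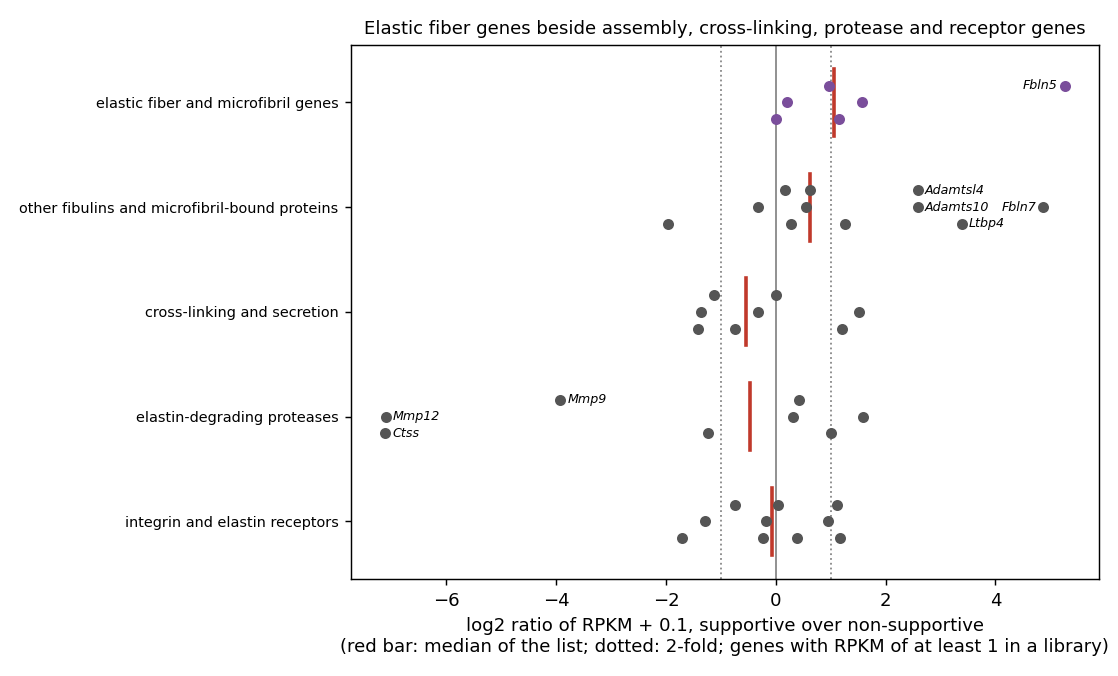
Log2 ratio of RPKM + 0.1 for each gene that reached an RPKM of 1 in a library (points; vertical position within a list only separates points), in the elastic fiber and microfibril list and the 4 further lists, with the median of each list as a red bar. The medians ran from 1.06 in the first list to 0.63, -0.54, -0.46 and -0.07, and Mmp12, Ctss and Mmp9 lay far to the left of the other proteases.

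Markers of other cell types are given beside these values. Of the smooth muscle genes, Myh11 (RPKM 26.3 against 108) and Cnn1 (78.6 against 187) were 2-fold lower in supportive ISEMFs, while Smtn was higher, at 4.88 against 3.16 (ratio 1.55, 1.44 to 1.66), and the 5 genes summed to 363 against 600. Des, the muscle intermediate filament desmin, was at 0.575 against 3.40, which was 5.92-fold lower (5.05 to 6.98). Of the fibroblast genes, Col1a2 and Col3a1 were higher, at 286 against 41.6 and 272 against 26.4, Pdgfra was lower, at 3.37 against 12.1, and the 5 genes summed to 879 against 369. The pericyte genes summed to 33.2 against 13.3, with Pdgfrb higher and Rgs5 lower. Endothelial genes summed to 0.131 and 0.209 and mesothelial genes to 0.127 and 0.0432, with 0 of 4 at an RPKM of 1 in either list. The epithelial genes summed to 0.530 against 3.24, and its members went both ways. Krt20 was at 0.0799 against 3.13, Cdh1 was higher in supportive ISEMFs, at 0.427 against 0.0497 (ratio 8.58, 5.26 to 14.9), and Epcam had 0 and 5 reads. The neuronal and glial genes summed to 6.74 against 0.190, nearly all of it S100b at 6.69 in the supportive library, while Sox10 had 0 reads in both. The part of any of these cells in the levels of Fbln5, Fbn1, Mfap4, Mfap5 or Fbn2 was not tested.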

How the data were processed

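RNA of 1 library of supportive and 1 library of non-supportive ISEMFs was converted to cDNA with a TruSeq kit and sequenced as single-end reads. The authors aligned the reads to mm9 with TopHat (TopHat2 2.0.4 in the submitters' processing notes) and counted reads unique to a gene with HTSeq (0.5.4p3 there). The deposited counts are raw reads per gene, and the RPKM the authors deposited divides them by the union of exons and the library size. The deposited exon lengths, in bases, are the authors' other gene values used here. Columns with the authors' log2 ratio and DESeq p-values, and a shorter Wnt pathway table, were not used.

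Samples were grouped by the population in their titles. A pseudocount of 0.1, a minimum RPKM of 1 and a 2-fold threshold were used. Intervals are exact Clopper-Pearson intervals (95%) of the share of reads, turned into ratios of RPKM. With 1 library a population no variation can be estimated, so neither edgeR nor DESeq2 gives a test, and they supplied scaling factors only. The 10 genes and the other lists were chosen with earlier results of these data known. Of the other lists, genes past 2-fold were named, with Lox and Efemp2 for context. Mfap1a, Mfap1b, Itgav and Itga8 were named after their values were seen. Thsd4 and Glb1 have 2 identifiers each, counted apart. Coordinates are from GENCODE vM1 (NCBIM37, the mm9 assembly), which holds all 37309 identifiers. The 2-fold count and the intervals were tried on simulated reads with counting error only, which cannot show variation between cultures. The software was edgeR 4.0.16 and DESeq2 1.42.0 in R 4.3.3, and scipy 1.17.1, pandas 2.3.3, matplotlib 3.10.9 and numpy 2.4.6 in Python 3.11.15.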

Additional observations from a re-analysis of the deposited data

How the results depend on the processing

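With 1 library a population, no replicate could be left out. No paired analysis was possible because each population has a single library. The log2 ratio of each of the 10 genes kept its sign under all 7 alternatives tried for it. Among these were TMM factors (0.984 and 1.02) and size factors of 1 for both libraries. A pseudocount or exon length shared by both libraries cannot change a sign, and the scalings moved all genes little. The kept signs are therefore no evidence of a difference, as for Fbln1, Mfap2 and Eln, whose intervals included none. Of the member ratios under the alternatives, 17 moved by more than counting error and 53 did not. The widest ranges were those of genes with few reads, from 0.94 to 5.09 for Mfap4 and from -6.43 to -0.50 for Fbn2, while Fbln5 ranged from 4.95 to 5.39 and Fbn1 from 1.55 to 1.69. The median log2 ratio of 1.06 was 0.71 with a pseudocount of 1, 1.36 with a minimum RPKM of 5 and 0.58 with no minimum. It was 1.20 with the reads on genes outside the mitochondrial genome as the library size.

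The summed RPKM ratio of 2.24 was 2.32 with TMM scaling and 2.31 with size factors. It was 2.44 with the reads on genes outside the mitochondrial genome as the library size. With the exon length of the annotation, an alternative chosen after seeing the data, it was 1.96. The 3 of 6 genes past 2-fold higher became 5 of 8 with that length. They also became 5 of 8 with the library size outside the mitochondrial genome, and 1 of 6 at 4-fold. Of protein-coding genes, 18.4%, 19.7% and 6.62% passed in either direction under these settings. In each count of 5 of 8, Mfap4 reached the minimum only through the supportive library, where it was higher. With no minimum, 4 of the 10 genes were 2-fold higher and 1, Fbn2, was lower, and 11.8% of protein-coding genes passed in either direction. For the other lists, the 11 higher and 10 lower of 37 entries became 4 and 3 at 4-fold, which 6.62% of protein-coding genes passed in either direction. Mmp14, Neu1 and Loxl4 fell under 2-fold with a pseudocount of 1, and Itga8 passed it under the other library scalings. Of all 53 values of these summaries under the alternatives, 39 moved by less than counting error or, for counts, by at most 1.5 times. Few reads leave wide intervals for Eln, Fbn2, Mfap4 and Mfap2.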
